A study of Homo sapiens with 12 samples.

Results

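The members of this account were hnRNPK ChIP-seq peaks on 4 stretches of the HCT116 genome that are dense in peaks, namely chromosome 8, chromosome 10 beyond 100 Mb, chromosome 16 beyond 80 Mb and chromosome 17, in GRCh38 coordinates. A peak was counted where its midpoint fell on 1 of the 4 stretches, which held 2741 of the 16768 peaks in the 6 deposited lists. Chromosome 8 carried 1145 of them, distal chromosome 10 carried 307, distal chromosome 16 carried 242 and chromosome 17 carried 1047. The stretches were chosen from the peak density measured in these same lists, so their density against the rest of the genome is given as a description with no test. HCT116 is a near-diploid colorectal carcinoma cell line, and karyotype work describes derivative chromosomes in it that add a further copy of parts of the long arms of chromosomes 8, 10 and 17. Where these parts begin and end is not given here, so they were not matched to any edge in the peak density. This summary of the karyotype is partial and says nothing either way about distal chromosome 16. No copy number was measured here, and its part in the peak density was not tested. All cells were HCT116 cells that overexpressed hnRNPK, and they carried a CRLM1 overexpression construct (CRLM1-OE), an empty control or an antisense control. Each of the 3 groups gave 2 immunoprecipitated (IP) libraries and 2 input libraries, 12 samples in all, and the inputs entered only through the calling of the 6 peak lists. The labels number the libraries within a group and do not say whether the 2 came from separate cultures, so p-values measure the spread between libraries, which may be technical.

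hnRNPK is an RNA- and DNA-binding protein of the nucleus that recognises runs of cytosine through its KH domains, and it acts in transcription, splicing and translation. CRLM1 is a long non-coding RNA that was linked to colorectal liver metastasis, and the study asked how its overexpression changes where hnRNPK meets chromatin. In ChIP-seq, DNA fragments crosslinked to the protein are sequenced, and a peak is an interval where the IP library exceeds its input by the limit of the caller. The peak score is the caller's significance measure and none was below 50 in the 6 lists.

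A well-shared peak is shown first, as the 300-base window around the midpoint of the best-ranked peak of its region. It was the region with the most lists on distal chromosome 10, and the capitals mark runs of 3 or more C or of 3 or more G on the strand shown, the letters that hnRNPK is known to prefer on one strand or the other. The window lies at chr10:133689285-133689584 in intergenic sequence near the pseudogene DUX4L20 and was called in 4 lists. It is printed on the plus strand of GRCh38.
chr10:133689285-133689584: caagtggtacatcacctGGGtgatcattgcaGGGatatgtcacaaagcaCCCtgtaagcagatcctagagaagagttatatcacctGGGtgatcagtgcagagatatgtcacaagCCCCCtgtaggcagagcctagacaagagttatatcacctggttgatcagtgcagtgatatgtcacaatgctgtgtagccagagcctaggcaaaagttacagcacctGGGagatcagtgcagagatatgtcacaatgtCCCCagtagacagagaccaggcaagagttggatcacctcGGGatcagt
The window held 3 runs of C and 5 runs of G at a GC content of 48.7%. The longer motif CCCTCCC, searched with its complement GGGAGGG, was not in it, which says only that these letters are not there.

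Peaks were denser on the segments than on the 18 other autosomes in all 6 lists, which is the property they were chosen for. In the CRLM1-OE lists the segments held 2.65 and 1.8 peaks per Mb of sequence without N, where the other autosomes held 1.44 and 1.07. In the empty control lists they held 1.11 and 1.82 against 0.537 and 0.832, and in the antisense control lists 1.42 and 1.29 against 0.759 and 0.76. The ratio of the 2 densities averaged 1.89 ± 0.203 (SD, n = 6 lists), from 1.68 to 2.19. The segments hold 9.86% of the autosomal sequence and took 17.1% ± 1.49 (SD, n = 6) of the autosomal peaks. Within single lists that share ran from 15.5% (95% Wilson interval 14.3 to 16.8%) in CRLM1-OE replicate 2 to 19.1% (17.7 to 20.7%) in empty control replicate 2, and such intervals cover counting error only. Read depth is unknown for all lists, and lists of unequal depth can hold unequal numbers of peaks.

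The segments differed from each other in how dense they were and in how far the lists spread. Distal chromosome 16 was the densest at 4.24 ± 1.52 times the other autosomes (SD, n = 6), with 4.89 and 3.38 in the CRLM1-OE lists, 2.19 and 6.58 in the empty control lists and 4.77 and 3.6 in the antisense control lists. Chromosome 17 stood at 2.29 ± 0.627, with 2.41 and 2.12, then 1.51 and 3.41, then 2.07 and 2.22 in the same order. Distal chromosome 10 stood at 1.76 ± 0.368, and chromosome 8 at 1.53 ± 0.395. On distal chromosome 16 and on chromosome 17 the 2 empty control lists were the lowest and the highest of the 6, and empty control replicate 1 was the highest of the 6 on chromosome 8 (2.29) and on distal chromosome 10 (2.48). That list also had the lowest GC content over its peaks, 38.8% on the other autosomes, where the other 5 lists lay between 42.7% and 45%. The remainders of the same chromosomes were near the other autosomes, at 0.909 ± 0.114 for chromosome 10 up to 100 Mb and 1.05 ± 0.257 for chromosome 16 up to 80 Mb.

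The ratio was as large away from gene starts: peaks and sequence more than 10 kb from any transcription start site (TSS) gave 1.93 ± 0.274 (SD, n = 6). Base composition moved the values of the GC-rich ends. When each 1 Mb bin was compared with other-autosome bins of the same class among 10 equal classes of GC content, the ratio over all segments was 1.73 ± 0.253, distal chromosome 16 fell to 2.67 ± 0.57 and chromosome 17 to 1.72 ± 0.242. Chromosome 8 was at 1.63 ± 0.357 and distal chromosome 10 at 1.61 ± 0.557 on that scale.

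**Figure D1:**
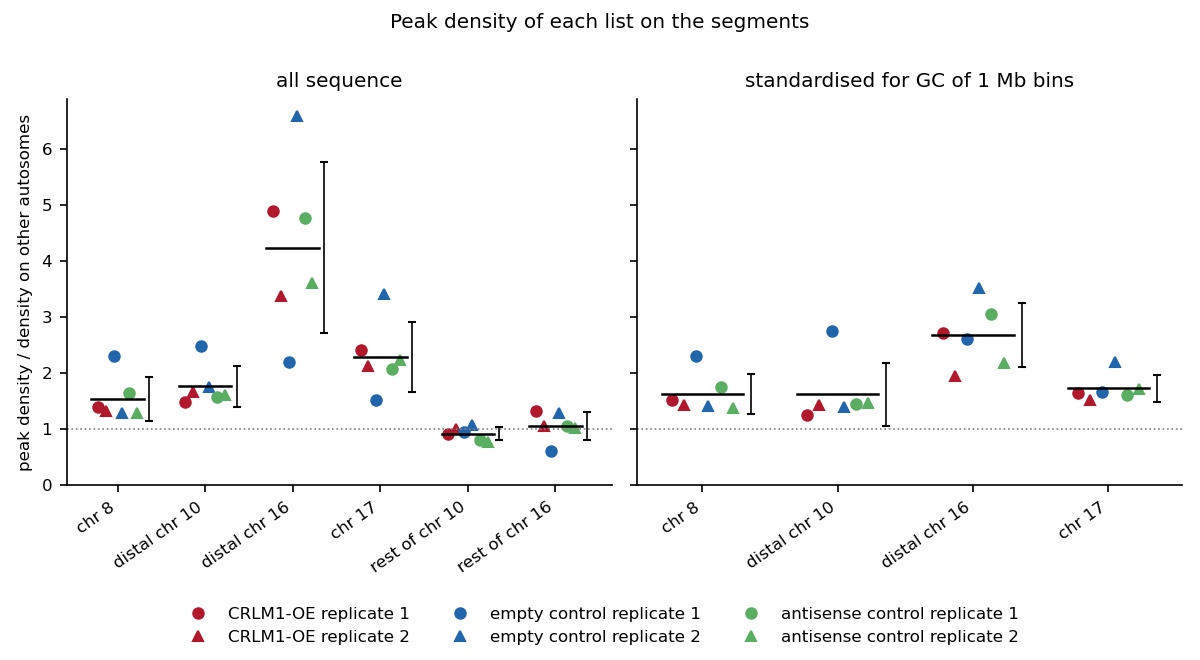
Peak density of each list divided by its density on the 18 other autosomes (vertical axis, a ratio without unit), on the 4 segments and the remainders of chromosomes 10 and 16 (left) and on the 4 segments with standardisation for the GC content of 1 Mb bins (right). Each symbol is 1 list, black lines are means over 6 lists and bars are 1 SD. All 6 lists lie above 1 on all 4 segments, and the spread on distal chromosome 16, from 2.19 to 6.58, narrows to 1.95 to 3.51 after standardisation.

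The density changed in steps along each chromosome, and in every list the side towards the end of the long arm was the denser one. With the 6 lists pooled, the single step that best divided 1 Mb bins lay at 136 Mb on chromosome 8, 99 Mb on chromosome 10, 79 Mb on chromosome 16 and 73 Mb on chromosome 17. The density beyond it was 3.16, 1.85, 4.02 and 3.66 times the density before it, in that order. By the gain in Poisson log likelihood these steps ranked 3rd, 7th, 2nd and 1st among the 22 autosomes. Of the 18 other autosomes, 33.3% had a best step of 2-fold or more in either direction. Chromosome 22 had the largest step of these at 4.97-fold and chromosome 15 the next at 2.67-fold, so the steps on chromosomes 8, 16 and 17 exceeded those of all other autosomes but chromosome 22, and that on chromosome 10 did not.

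List by list, the position was best fixed on chromosome 16 and least on chromosome 8. On chromosome 16 the 6 edges lay at 79, 83, 79, 82, 77 and 85 Mb for CRLM1-OE replicates 1 and 2, empty control replicates 1 and 2 and antisense control replicates 1 and 2. On chromosome 10 they lay at 104, 91, 99, 90, 98 and 100 Mb. On chromosome 17 they lay at 73, 74, 52, 73, 76 and 77 Mb, and on chromosome 8 at 135, 136, 66, 139, 68 and 138 Mb. Thus 4 lists placed the chromosome 8 edge between 135 and 139 Mb and the other 2, 1 of each control, placed it at 66 and 68 Mb. The pooled lists gave 136 Mb as their first edge and 66 Mb as their second. The limits of the rule fell close to these edges. In the 5 Mb before 100 Mb on chromosome 10 the lists held 3 to 11 peaks and in the 5 Mb beyond it 4 to 11. In the 5 Mb before 80 Mb on chromosome 16 they held 2 to 15 and in the 5 Mb beyond it 5 to 22.

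**Figure D2:**
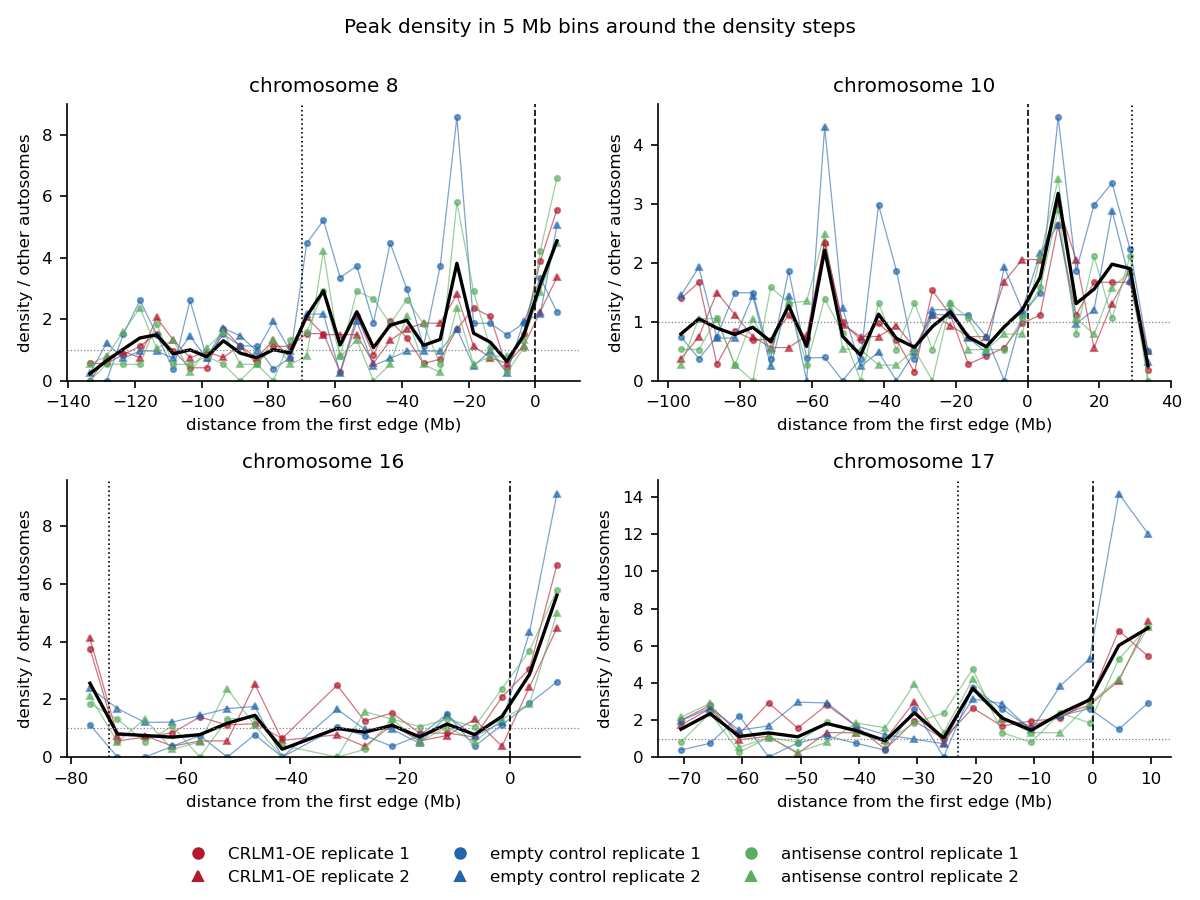
Peak density in 5 Mb bins of chromosomes 8, 10, 16 and 17, divided by the same list's density on the other autosomes (vertical axis, a ratio), against the distance in Mb from the first edge found in the pooled lists (dashed line), with the second edge as a dotted line. Coloured lines are the 6 lists and the black line is their mean. The mean of chromosome 17 keeps rising beyond its first edge, and on chromosome 8 the mean is uneven between the second and the first edge, with single bins back at or below 1.

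The second edge of the pooled lists divided each chromosome into 3 pieces, and the density was uneven among them. The first 66 Mb of chromosome 8 had 0.94 ± 0.194 times the density of the other autosomes (SD, n = 6), from 0.582 to 1.11. Between 66 and 136 Mb the ratio was 1.77 ± 0.868, with 1.40 and 1.46 in the CRLM1-OE lists, 3.38 and 1.10 in the empty control lists and 2.11 and 1.17 in the antisense control lists, and beyond 136 Mb it was 3.97 ± 1.13. On chromosome 17 the first 50 Mb stood at 1.49 ± 0.353 and above 1 in 5 of 6 lists, the stretch from 50 to 73 Mb at 2.27 ± 0.254 and the end beyond 73 Mb at 6.23 ± 3.70. The stretch from 50 to 73 Mb was the most even of these over the lists, with 1.87 and 2.36 in CRLM1-OE, while the empty control lists both gave 2.51 and the antisense control lists 2.06 and 2.29. Beyond 73 Mb a single gene, RBFOX3, held 27 of the 112 peaks of empty control replicate 2 and 19 of the 94 of CRLM1-OE replicate 1. It held 5 in antisense control replicate 1 and 1 in each remaining list.

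Distal chromosome 10 was itself divided. Between 99 and 128 Mb the ratio was 1.92 ± 0.416, and in the last piece, from 128 Mb to the end, it was 0.906 ± 0.38, with 26 peaks from the 6 lists and none of them within 1 kb of a TSS. On chromosome 16 the end beyond 79 Mb stood at 4.15 ± 1.46 and the long middle, from 6 to 79 Mb, at 0.90 ± 0.222. The first 6 Mb of chromosome 16, which lie outside the segments, stood at 2.31 ± 1.04, and 37.3% of their 83 peaks were TSS-proximal.

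With the GC content of 1 Mb bins taken into account, the ratios of the first pieces lay nearer to 1 and most of those beyond stayed higher. The ratio was 0.988 ± 0.192 on the first 66 Mb of chromosome 8, 0.934 ± 0.104 on the first 99 Mb of chromosome 10, 1.09 ± 0.113 on the first 50 Mb of chromosome 17 and 1.28 ± 0.368 on the first 6 Mb of chromosome 16. From 6 to 79 Mb of chromosome 16 it was 0.80 ± 0.143, below 1 in 6 of 6 lists, and beyond 128 Mb of chromosome 10, past the second edge there, it was 0.659 ± 0.45. It was 1.99 ± 0.723 between 66 and 136 Mb of chromosome 8, 1.90 ± 0.555 between 99 and 128 Mb of chromosome 10 and 2.29 ± 0.273 between 50 and 73 Mb of chromosome 17. It was 2.89 ± 0.693 at the end of chromosome 8, 2.71 ± 0.61 at that of chromosome 16 and 3.25 ± 1.27 at that of chromosome 17, all n = 6. The GC content of the sequence was 47.6%, 48.3% and 52% at these 3 ends, against 38.6%, 43.2% and 41.8% on the pieces just before them on the same chromosomes. The end of chromosome 10 had a GC content of 48.8%, and its ratio rests on 26 peaks from the 6 lists. The part of GC content in the density was not tested. The pieces were drawn from the pooled lists, so these ratios carry no test.

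**Figure D3:**
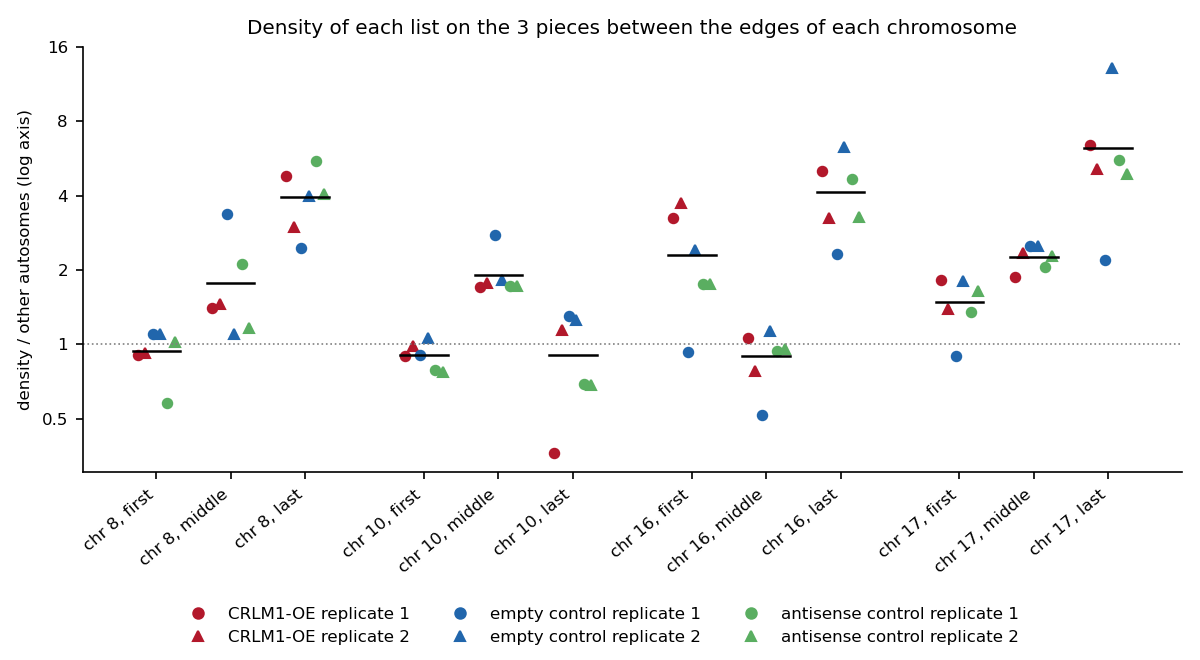
Density of each list on the 3 pieces into which the first 2 edges divide each chromosome, in order along the chromosome, over that list's density on the other autosomes (vertical log axis, a ratio). Symbols are lists and black lines are means over 6 lists. The last piece of chromosome 17 ranges from 2.19 to 13.2 and its middle piece from 1.87 to 2.51.

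In 5 Mb bins, 20 of the 55 bins on the segments reached at least 2 times the median density of other-autosome bins in 4 or more lists, where 5.81% of 465 bins on the other autosomes did. In single lists the bins past that limit numbered 27, 21, 37, 31, 25 and 23 of 55, in the list order used above, against 14%, 8.82%, 25.8%, 20.2%, 10.8% and 15.5% of the other bins. Of the 20 densest bins of all autosomes 11 lay on the segments, which make up 9.91% of the bins. The densest was the bin of chromosome 17 from 80 Mb on, at 8.76 times the list medians on average, then the bin from 75 to 80 Mb of chromosome 17 at 7.69 and the bin from 85 to 90 Mb of chromosome 16 at 7.09. The bin from 110 to 115 Mb of chromosome 8 reached 4.85 at a GC content of 34.4%. The low bins of the segments were the outermost 5 Mb of the short arm of chromosome 8 at 0.28 and the end of chromosome 10 from 130 Mb at 0.31.

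The peaks themselves differed from those of the other autosomes in measures that the choice of segments did not use, though none passed the threshold of 0.05 after Benjamini-Hochberg adjustment over the 5 measures. Among these measures, the overlap of peaks between lists still rises with peak density. Peaks with a score under 60 made up 58.7% ± 3.20 of segment peaks and 65.4% ± 3.64 of other peaks (SD, n = 6), a difference of -6.75 percentage points that had the same sign in 6 of 6 lists (exact sign-flip permutation test, two-sided, p = 0.03125, adjusted p = 0.0521). That p is the smallest that 6 lists can give. In the CRLM1-OE lists the share was 58.7% and 54.3% on the segments and 66.4% and 60.6% elsewhere. The segments were uneven in this, with 54.0% ± 5.13 on chromosome 17 but 63.7% ± 4.88 on chromosome 8, near the other autosomes. In both CRLM1-OE lists chromosome 8 was slightly above the other autosomes, at 66.6% and 62.1%. The remainders of chromosomes 10 and 16 stood at 63.0% ± 7.49 and 62.7% ± 8.51. Median widths were larger on the segments in 6 of 6 lists, by 0.19 on the log2 scale (same exact permutation test, p = 0.03125, adjusted p = 0.0521), with 548 bp against 500 bp in CRLM1-OE replicate 1 and 865 bp against 731 bp in CRLM1-OE replicate 2.

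The GC content of peaks averaged 45.6% ± 3.24 on the segments and 43.2% ± 2.39 elsewhere, higher by 2.43 percentage points in 6 of 6 lists (exact sign-flip permutation test, p = 0.03125, adjusted p = 0.0521). The sequence of the segments is itself richer, at 42.5% against 40.7%, and with the GC content of the sequence subtracted the difference was 0.619 points (same exact permutation test, adjusted p = 0.3125). Without chromosome 17 it was 0.312 points (adjusted p = 0.46875 by the exact permutation test). Both alternatives were added after the data were seen. Chromosome 8 went against this, with peaks at 41.2% ± 2.28, while peaks on distal chromosome 16 stood at 53.7% ± 2.90 and those on chromosome 17 at 49.2% ± 3.28. A peak overlapped a peak of another list by at least 1 bp in 8.31% ± 1.66 of segment peaks and 6.51% ± 1.41 of other peaks, higher in 5 of 6 lists (same exact permutation test, p = 0.0625, adjusted p = 0.0781). Peak density, which chose the segments, raises this share by construction, so the test cannot show a difference beyond density. The overlap was 12.4% ± 2.96 on chromosome 17 and 5.19% ± 0.861 on chromosome 8, and it was 12% ± 4.93 on the remainder of chromosome 10, so a high overlap was not particular to the segments. Without chromosome 8, an alternative added after the data were seen, the differences in score, width and GC had an adjusted p of 0.0391 by the exact permutation test. The overlap difference had the same adjusted p, but density raises that share, so the value is no support for a difference.

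**Figure D4:**
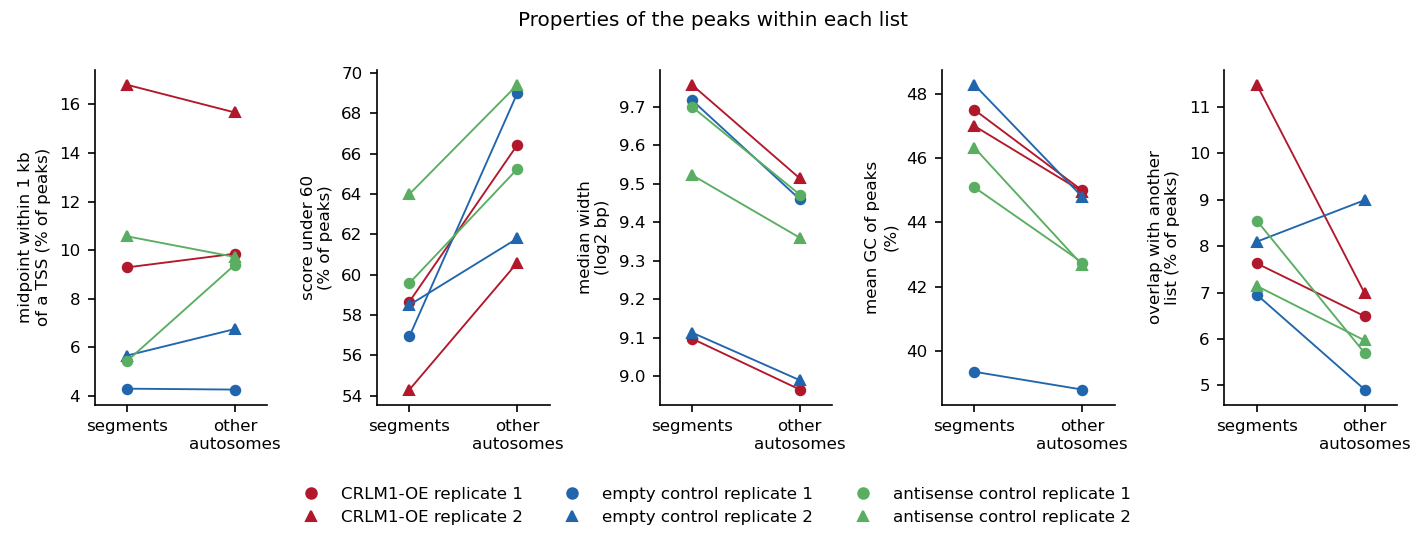
The 5 properties of the peaks of each list on the segments (left points) and on the other autosomes (right points): the share with the midpoint within 1 kb of a TSS, the share with a score under 60, the log2 of the median width in bp, the mean GC content in percent and the share that overlaps a peak of another list. Each line is 1 list, and axes do not start at 0. The lines for score, width and GC slope the same way in 6 of 6 lists, and those for the TSS share slope both ways.

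The share of TSS-proximal peaks was not shown to differ between the segments and the other autosomes. The midpoint was within 1 kb of a TSS for 8.68% ± 4.66 of segment peaks and 9.28% ± 3.82 of other peaks (SD, n = 6), a difference of -0.60 percentage points with the same sign in 3 of 6 lists (exact sign-flip permutation test, two-sided, p = 0.625, adjusted p = 0.625). On the segments the CRLM1-OE lists gave 9.29% and 16.8%, those of the empty control 4.30% and 5.67% and those of the antisense control 5.44% and 10.6%. Among the 4 segments the share was lowest on chromosome 8 (4.74% ± 2.63) and highest on chromosome 17 (13.6% ± 8.37), where CRLM1-OE replicate 2 alone reached 28.7%, 54 of its 188 peaks (95% Wilson interval 22.7 to 35.6%). The remainder of chromosome 16 was higher still, at 17.1% ± 6.93, against 10.5% ± 4.32 on distal chromosome 16. On chromosome 10 the remainder stood at 5.31% ± 2.73 and the distal part at 6.09% ± 3.23. The segments offer more TSS sequence, 4.33% within 1 kb against 3.76% on the other autosomes. Set against that, TSS-proximal peaks were 2.00 ± 1.08 times their sequence share on the segments and 2.46 ± 1.01 times on the other autosomes, a difference of -0.35 on the log2 scale with the same sign in 6 of 6 lists (exact sign-flip permutation test, p = 0.03125, adjusted p = 0.0391), in a form of the measure that was chosen after the data were seen.

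Most segment peaks lay in introns and between genes. By midpoint, introns held 54.3% ± 4.01 of them, intergenic sequence 27.4% ± 1.88 and the 10 kb upstream of genes 7.51% ± 1.14, while coding exons held 2.83% ± 1.24 and untranslated regions 4.55% ± 2.47. The corresponding shares on the other autosomes were 52.7%, 29.6%, 8.47%, 2.27% and 3.82%. The C-rich motif CCCTCCC or its complement was in the central 300 bases of 14.2% ± 4.43 of segment peaks and 11.6% ± 2.61 of other peaks, and in 26.6% of all 35116 RefSeq promoters of that length. It was most frequent on distal chromosome 16 (20.8% ± 6.30) and chromosome 17 (19.2% ± 4.85) and least on chromosome 8 (8.90% ± 3.66), the same order as the GC content of the peaks. In empty control replicate 1 alone the motif was rarer on the segments, at 5.63% against 7.25% on the other autosomes. The GC content of the sequence was 42.5% on the segments and 40.7% on the other autosomes, and its part in these shares was not tested.

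CRLM1-OE and control lists were compared to ask whether CRLM1 overexpression moved peaks towards or away from the segments. The log2 density ratio was 0.815 ± 0.0969 in CRLM1-OE, against 1.09 ± 0.0555 in the empty and 0.833 ± 0.102 in the antisense control (SD, n = 2 lists each). CRLM1-OE was below the empty control by -0.27, with no overlap of the lists, and below the antisense control by -0.02, with overlap. The antisense control was below the empty control by -0.26, with no overlap. These differences are given as values with no test, since the density of the same lists chose the segments. On single other autosomes the lists of the 2 groups failed to overlap for 27.8%, 44.4% and 33.3% of the 18 chromosomes in the same 3 comparisons, so a gap of this kind was common. Among lists of similar peak width, the difference from the empty control was -0.25 for the narrow pair, CRLM1-OE replicate 1 and empty control replicate 2, and -0.30 for the wide pair. With the 1000 highest-scoring peaks of each list it was -0.01.

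The TSS-proximal share on the segments was 13.0% ± 5.31 in CRLM1-OE, against 4.99% ± 0.964 in the empty and 8.01% ± 3.63 in the antisense control (SD, n = 2 lists each). Both CRLM1-OE lists lay above both empty control lists, by 8.06 percentage points on average (exact two-sided permutation test, p = 0.333), where 0.333 is the smallest p that 2 against 2 lists allow, and this difference was 3.62 points between the narrow pair of lists and 12.5 points between the wide pair. CRLM1-OE exceeded the antisense control by 5.04 points (exact permutation test, p = 0.667), and without CRLM1-OE replicate 2 by 1.29 points. The antisense control exceeded the empty control by 3.02 points (exact permutation test, p = 0.667), and without antisense control replicate 2 by 0.454 points. The last 2 pairs overlapped. The same order of CRLM1-OE and empty control held off the segments, where the other autosomes gave 9.86% and 15.7% in CRLM1-OE, 4.27% and 6.76% in the empty control lists and 9.40% and 9.72% in the antisense control lists, so a gap between these groups was present there too.

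Of the 2220 protein-coding genes on the segments, 273 (12.3%) carried a peak in their body or the 5 kb upstream in 2 or more lists, against 8.33% of 15636 genes on the other autosomes. In single lists the counts were 322 and 282 with CRLM1 overexpressed, where 10.6% and 9.43% of other-autosome genes had a peak and 14.5% and 12.7% of segment genes did. Empty control lists had 106 and 200 such genes (4.77% and 9.01%, against 3.52% and 5.55%), and antisense control lists had 180 and 176 (8.11% and 7.93%, against 5.78% and 5.93%). Distal chromosome 16 had the highest share, with 36 of its 102 genes in 2 or more lists. Both CRLM1-OE lists shared 100 segment genes (4.5%, against 2.35% of other-autosome genes), both empty control lists 34 (1.53%, against 0.55%) and both antisense control lists 36 (1.62%, against 0.87%). The CRLM1-OE pair alone shared 30 genes (1.35%, against 1.06%). List length differed too, since CRLM1-OE had the 2 longest lists, with 4496 and 3213 peaks against 1647 to 2849, and the part of list length in these counts was not tested. These counts follow the density that chose the segments and are given as a description.

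The genes with a peak in the most lists were mostly long ones with peaks scattered through their introns, and the part of gene length in this was not tested. On chromosome 8 these were CSMD3, which spans 1214 kb at chr8:112222928-113436939 and encodes a large membrane protein, with a peak in 6 lists, and PEBP4, PREX2, RALYL and SGCZ with 5 each. CSMD3 held 4 peaks in empty control replicate 1, the best with a score of 110.8 and a rank of 13 among 1619, and 1 in CRLM1-OE replicate 2, where its best score was 51.6. On distal chromosome 10 ATRNL1, spanning 856 kb, had a peak in 6 lists, CPXM2 and DOCK1 in 4 and C10orf90 and PSD in 3. PSD is the short one of these at 18.9 kb, and its CRLM1-OE replicate 2 peak lay 70 bp upstream of its TSS.

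On distal chromosome 16 CDH13, which encodes T-cadherin and spans 1174 kb at chr16:82626965-83800640, and GSE1, spanning 507 kb, had a peak in all 6 lists, CDYL2 and ZFPM1 in 5 and ZNF469 in 4. CDH13 held 5 and 4 peaks in the CRLM1-OE lists, 1 and 8 in the empty control lists and 5 and 1 in the antisense control lists. These counts differed as much within a control as between groups. The best peak of GSE1 ranked 10 of 2262 in antisense control replicate 1, with a score of 133.5.

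On chromosome 17 RBFOX3, SDK2, SEPTIN9 and TEX14 had a peak in 6 lists and GH1 in 5. RBFOX3 encodes a neuronal splicing factor and spans 522 kb at chr17:79089345-79611051, within the dense bin from 75 to 80 Mb. It held 19 and 1 peaks in the CRLM1-OE lists, 1 and 27 in the empty control lists and 5 and 1 in the antisense control lists. Its high counts were in the 2 narrow-peak lists, CRLM1-OE replicate 1 and empty control replicate 2, and the antisense control lists were both wide. SEPTIN9, a septin of the cytoskeleton, held 2 peaks in CRLM1-OE replicate 2 and 1 in every other list, and in 4 of the lists the midpoint of the best peak lay between 76009 and 76272 bp past the TSS of the gene. TEX14 held a peak of rank 16 of 3163 in CRLM1-OE replicate 2, with a score of 319.1. Its midpoint lay 12642 bp past the TSS of TEX14 but 277 bp from the TSS of another gene record. The best peaks in CRLM1-OE replicate 1, empty control replicate 1 and antisense control replicate 2 lay 656, 407 and 577 bp from such a TSS. Those in empty control replicate 2 and antisense control replicate 1 lay 15392 and 36471 bp from any TSS.

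GH1, the growth hormone gene, was the shortest of these genes, at 1.64 kb. Its region, just past the 3′ end of the gene, had scores of 822.1 and 226.9 in the CRLM1-OE lists, 67.4 and 386.6 in the empty control lists and 281.9 in antisense control replicate 1, and no peak in antisense control replicate 2. It ranked 1 of 4339 in CRLM1-OE replicate 1 and 3 of 2262 in antisense control replicate 1, so high ranks were found in lists with and without CRLM1-OE. The sequences of the plasmids were not analysed here, and whether construct DNA adds reads at this place was not tested. A further protein-coding record, ENSG00000285947, overlaps the region.

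The second region of chromosome 17 lay at chr17:28724246-28727655, from the 3′ end of RPL23A into TLCD1 and NEK8, and was called in 5 lists. Its score was 371.1 in CRLM1-OE replicate 2, rank 5 of 3163, and 72.2 in CRLM1-OE replicate 1, while it was 95.3 in empty control replicate 2 and 58.2 and 105.2 in the antisense control lists. The 2 regions of chromosome 8 called in all 6 lists were neighbours at chr8:43237303-43238375 and chr8:43239236-43240549, close to the centromere, with a processed pseudogene as the nearest gene record at 8380 and 6206 bp. The central 300 bases of each region were divided into 6 words of 50 bases, and 5 and 4 of these occurred once in GRCh38. The region near DUX4L20 on chromosome 10 had scores of 110.1 and 66.3 in CRLM1-OE, of 84.9 and 131.4 in the empty control lists and no antisense control peak, and only 3 of its 6 words were unique, with up to 7 places for the others. The region beside SLC7A5, an amino acid transporter gene, on chromosome 16 had scores of 158.4 and 276.1 in CRLM1-OE and 92.9 in empty control replicate 2. Merged over lists, 91 of 2602 segment regions (3.50%) were called in 2 or more lists, against 2.58% on the other autosomes, and 2511 segment regions were called in a single list. The share was 5.24% on distal chromosome 16 and 4.97% on chromosome 17, but 2.36% on distal chromosome 10 and 2.16% on chromosome 8. It was 4.44% and 4.25% on the remainders of chromosomes 10 and 16, so a high share was not particular to the segments. Peak density, which chose the segments, raises this share by construction.

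Among the gene lists chosen for these chromosomes, growth and cancer genes had a peak in 2 or more lists at 3 of 33. By the same count 8.33% of other-autosome genes and 12.3% of all segment genes had one. The 3 were NF1, a negative regulator of Ras, CBFA2T3, a transcriptional corepressor, and CDH13. The CRLM1-OE lists held a peak at 3 and 4 of the 33, the empty control lists at 3 and 5 and the antisense control lists at 2 and 3, beside 10.6%, 9.43%, 3.52%, 5.55%, 5.78% and 5.93% of other-autosome genes in the same order. Of all segment genes 14.5%, 12.7%, 4.77%, 9.01%, 8.11% and 7.93% had a peak in these lists. No list held a peak at ERBB2, BRCA1, STAT3, TOP2A, SMURF2 or AXIN2, although all lie on chromosome 17. At SOX9, a transcription factor gene of the intestinal epithelium, the 1 peak was in empty control replicate 1, with a midpoint 291 bp upstream of the TSS and a score of 65.4, a gene singled out after its values were seen.

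Among ribosomal protein and translation factor genes a peak was found at 4 and 8 of 18 in the CRLM1-OE lists, at 0 in either empty control list and at 1 in each antisense control list, where 10.6%, 9.43%, 3.52%, 5.55%, 5.78% and 5.93% of other-autosome genes had one. The shares of all segment genes were higher, at 14.5%, 12.7%, 4.77%, 9.01%, 8.11% and 7.93% in the same order. EIF4A1, an RNA helicase of translation initiation, had a peak in 3 lists, with best scores of 129.5 and 234.1 in CRLM1-OE and 95.2 in antisense control replicate 1 and with midpoints just past the 3′ end of the gene. PABPC1, the poly(A)-binding protein, had scores of 59.5 and 82.0 in CRLM1-OE replicates 1 and 2. Several of the CRLM1-OE replicate 2 peaks were wide, with midpoints past the 3′ end of the gene and partly over neighbouring genes, such as RPL8 (3951 bp wide, score 272.5), RPL13 (3434 bp, 209.2), RPL38 (3800 bp, 188.2) and RPL23A (3201 bp, 371.1). Of the 8 genes in that list 2 also had a peak in CRLM1-OE replicate 1, and the counts were not tested. At RPL23A the wide peak of CRLM1-OE replicate 2 reaches the 3′ end of the gene, while peaks of 4 other lists in the same region, 1 of the empty control among them, end outside it, so the counts depend on peak width there. The 4 RPL genes were singled out after their values were seen.

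HOXB genes, which pattern the body axis, had a peak at 5 of 10, in antisense control lists alone, with 2 in replicate 1 and 3 in replicate 2, beside 5.78% and 5.93% of other-autosome genes and 8.11% and 7.93% of all segment genes. Neighbouring genes shared a peak, HOXB3 with HOXB4 and HOXB7 with HOXB8. Type I keratin genes had a peak at 2 of 27, KRT15 and KRT19, both in CRLM1-OE replicate 2, where 9.43% of other-autosome genes and 12.7% of all segment genes had a peak, and the beta-defensin genes at none of 20.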

How the data were processed

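Per the labels and the study's methods, reads were trimmed with cutadapt, aligned to GRCh38 with Bowtie2, and peaks were called with MACS for each IP library against its own input. The study's methods name MACS2 with a limit on the q-value, and how the scores relate to that limit is not given. Replicates were not pooled. The deposited lists give each peak an interval and a score that the authors' caller wrote, and none was below 50. Whether the score is −10 times a log10 p is not given in the sources used here, so scores were ranked within lists. Lists hold no read depth, which limits comparisons between them.

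From these lists, peaks were placed by midpoint, and density was taken over sequence without N. GENCODE v44 gave genes and TSS, and RefSeq gave promoters. Edges were the 1 Mb bin limits with the largest gain in Poisson log likelihood. Segments and other autosomes were compared within lists by an exact sign-flip permutation test over 6 lists, and the TSS-proximal share of groups by an exact permutation test of 2 against 2 lists, both two-sided, with Benjamini-Hochberg adjustment. Python 3.11.15, numpy 2.4.6, pandas 2.3.3 and scipy 1.17.1 were used, and the procedures were tested on simulated data. Peaks outside chromosomes 1 to 22, X and Y (554) were left out. Named genes were the 5 with a peak in the most lists on each segment, and the genes of the fixed lists that had a peak. Members and lists were chosen with earlier results of these data known. Alternatives covered score limits, the top 1000 peaks per list, TSS windows and leaving out each list. Those that left out a segment, set the TSS share or peak GC against the sequence, or crossed replicate numbers were chosen after seeing the data. Some items withheld from this text are not reported here.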

Additional observations from a re-analysis of the deposited data

How the results depend on the processing

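Across the alternatives, 184 values kept their direction and their side of the threshold or stayed within the spread of the lists. A further 9 changed sign, 8 moved beyond that spread and 5 newly passed the threshold. Under the exact permutation tests the smallest p is 0.333 for 2 against 2 lists and 0.0625 for 5 lists. Comparisons of groups and those with 1 list left out thus could not pass 0.05, and for them the count of 184 does not measure stability. The density ratio moved to 2.11 with peaks at or above the median score of their list, to 2.27 with the 1000 highest-scoring peaks per list and to 2.30 without chromosome 8. The density difference between CRLM1-OE and the antisense control turned to 0.0337 and 0.284 under the first 2 of these and ranged from -0.0903 to 0.0542 when 1 list was left out, with the sign turned without CRLM1-OE replicate 2 or without antisense control replicate 1. The TSS-proximal difference between the segments and the other autosomes was 0.18 points with a 5 kb window and 2.28 points without chromosome 8, while it was -2.52 points with the top 1000 peaks (exact permutation test, adjusted p = 0.078125) and -3.56 points without chromosome 17 (adjusted p = 0.0521 by the same exact permutation test), and it ranged from -0.945 to 0.0749 when 1 list was left out, the highest without antisense control replicate 1. Its form relative to the sequence was -0.35 on the log2 scale. The overlap difference turned to -0.80 points with the top 1000 peaks and to -0.49 points without chromosome 17. Without chromosome 8 the differences were -9.96 points for scores under 60, 0.25 for log2 width, 5.66 points for GC and 4.18 points for overlap. The edge on chromosome 8 lay at 67 Mb with the top 1000 peaks and between 68 and 136 Mb when 1 list was left out, 68 Mb without CRLM1-OE replicate 1. The edge on chromosome 10 lay between 93 and 99 Mb, 93 Mb without empty control replicate 1, and that on chromosome 16 at 83 Mb with the median-score and the top 1000 peaks. The cause of these changes was not tested.

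Replicate numbers did not pair the lists, with correlations of -0.285, -0.018 and 0.044 over 555 bins. With the number as a replicate block the differences kept their values, such as -0.27 for the density of CRLM1-OE against the empty control. The smallest p that 2 pairs allow is 0.5, so the block, and crossed numbers chosen after seeing the data, could give no call and say nothing about stability. Unknown read depth and 2 lists per group limit what can be shown.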
